A study of Mus musculus with 6 samples.

Results

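Collagens are secreted proteins built as helices of alpha chains, each chain encoded by its own gene. Fibrillar collagens form the tensile fibres of connective tissue, type IV collagen forms the sheet of basement membranes beneath epithelium and around vessels, and further classes decorate fibrils, form beaded filaments or networks, or span the cell membrane. In mammary tumours they are made largely by fibroblasts, pericytes and endothelial cells, and in part by the tumour cells themselves.

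The collagen family was taken as every protein-coding gene of the authors' deposited comparison table whose symbol consists of Col, a type number, the letter a and a chain number. This gave 44 genes among 39179 gene identifiers, of which 11 encode fibrillar chains, 8 encode basement membrane chains (types IV, XV and XVIII) and 25 belong to other classes. RNA-seq was available for 3 tumour grafts labelled AXL KO and 3 labelled WT. The AXL KO grafts came from cells without AXL (AXL-/-), a receptor tyrosine kinase, and the WT grafts from cells with it (AXL+/+). All cells derived from MMTV-Neu tumours, in which the MMTV promoter drives the Neu (ErbB2) oncogene, and all were grafted into FVB mice. Age, graft site and time after grafting are not given in the labels, nor is it stated whether cells of both genotypes came from one line or clone. A graft also holds host stroma and vessels, so each library mixes collagen transcripts of tumour and host. In such bulk samples, fewer cells of a type and less RNA per cell cannot be told apart. Whether replicate grafts were grown in different animals or from different cultures is not stated, so each p-value rests on the spread among these libraries, and that spread may be technical.

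The AXL KO libraries held 28808499 to 32491807 counts in genes, and the WT libraries 26541009 to 29977133. Axl, the targeted gene, had 1360, 2396 and 1767 counts in the libraries labelled AXL KO and 1906, 1761 and 1507 in those labelled WT. Its log2 fold change was -0.01 ± 0.16 (SE, edgeR adjusted p = 0.978). The counts therefore did not check the genotype, and every direction below is between libraries as labelled. Levels are given as CPM (a count as a proportion of the library total, scaled for library composition with TMM factors). Log2 fold changes are AXL KO over WT with their standard error, and adjusted p-values come from the edgeR quasi-likelihood test with Benjamini-Hochberg adjustment over all 14850 tested genes. A gene is called at an adjusted p under 0.05, and n = 3 per group throughout.

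Most of the collagen genes with measurable transcripts were lower in the AXL KO grafts. Of 38 members that passed the filter on low counts, 22 fell, 2 rose and 14 did not pass the test. Over all tested genes, 18.3% were called lower and 19.1% higher. The median log2 fold change was -0.77 over the tested collagens and 0.00 over all tested genes. The 2 that rose were Col7a1, the chain of anchoring fibrils, and Col4a4, a type IV chain best known from the kidney glomerulus. The groups did not overlap, with all AXL KO libraries lower, in 23 collagens, against 25.2% of all tested genes. They did not overlap with AXL KO higher in 2 collagens, against 26.9% of all tested genes. Among the tested members, Col2a1 and Col6a5 reached the filter level in fewer than 3 AXL KO libraries and in all 3 WT libraries, so they entered the test through the group where they were higher. Col2a1 is counted among the 22 that fell, and Col6a5 was not called. Col23a1 reached the filter level in 2 AXL KO libraries and 1 WT library.

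**Figure D1:**
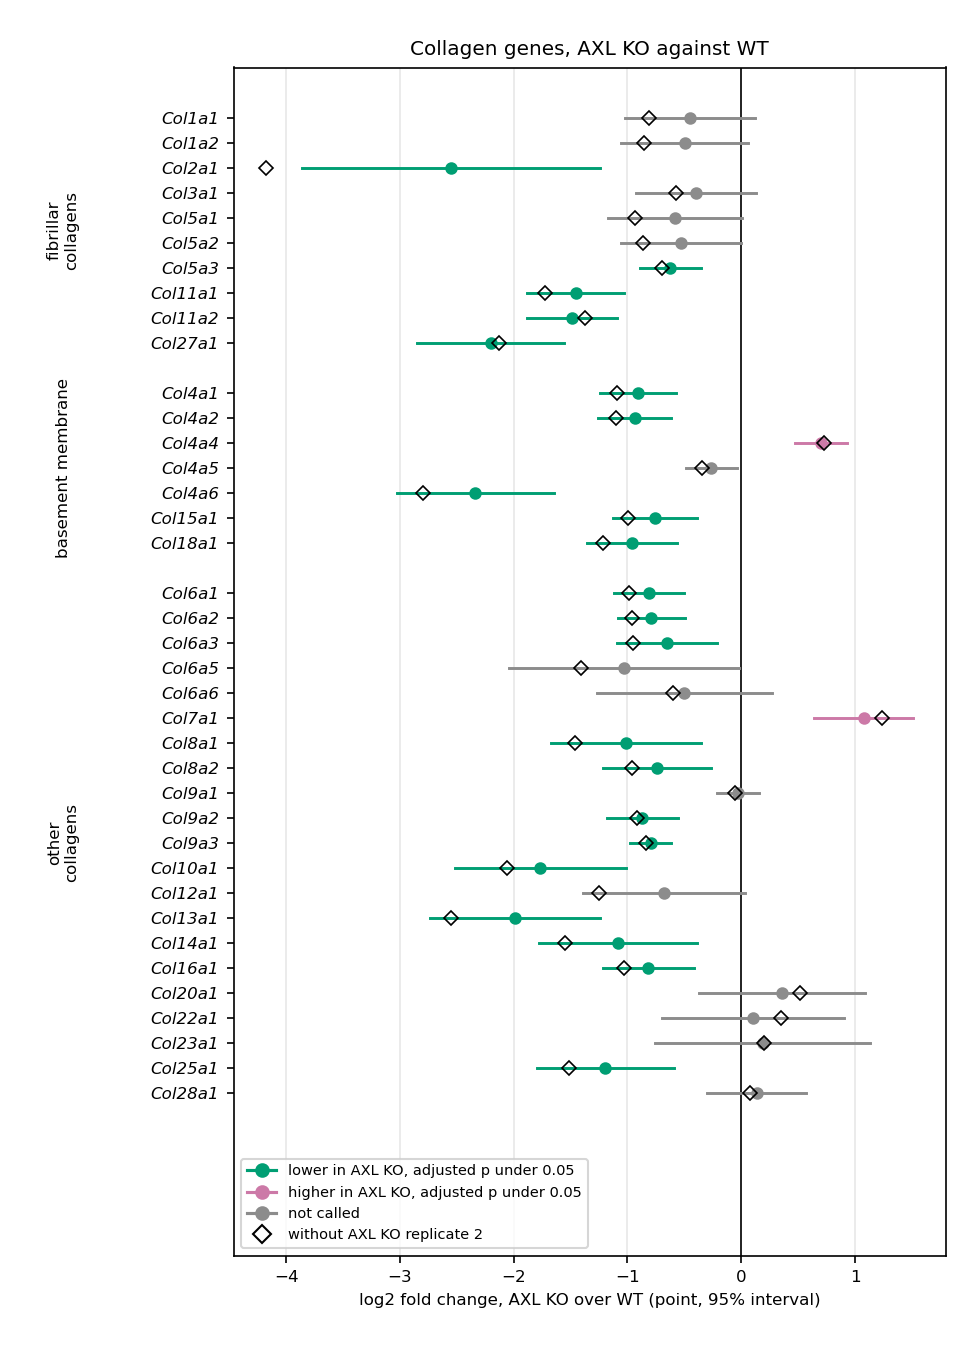
Log2 fold change of each tested collagen gene, AXL KO over WT, on the x axis, by class. Points with lines are estimates with 95% intervals from edgeR over all 6 libraries, and diamonds are estimates without AXL KO replicate 2. That library was left out because it was the highest of its group for many collagens. Most estimates lie left of 0, with Col4a4 at 0.70 and Col7a1 at 1.08 called to the right.

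The sum over all 44 genes was 4096, 5896 and 4303 CPM in the AXL KO libraries and 7930, 7070 and 6468 CPM in the WT libraries, so the groups did not overlap. The AXL KO mean was 1.502-fold lower. The fibrillar sum was 1652, 2733 and 1681 CPM in AXL KO and 3862, 3040 and 2850 CPM in WT libraries. The basement membrane sum was 824, 1165 and 883 CPM in AXL KO and 1671, 1860 and 1513 CPM in WT libraries. The remaining classes summed to 1620, 1998 and 1739 CPM in AXL KO and 2397, 2170 and 2105 CPM in WT libraries. Each sum stood lower in every AXL KO library than in any WT library. The means were lower by 1.61-fold, 1.76-fold and 1.25-fold for the fibrillar, basement membrane and other classes. In the other classes, Col9a1 alone averaged 1062 of 1786 CPM in AXL KO libraries and 1082 of 2224 CPM in WT libraries. That gene was not called, and the median log2 fold change was -0.79 in the other classes and -0.60 in the fibrillar class.

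AXL KO replicate 2 was the highest of its group for many collagens. It ranked first among the AXL KO libraries in 28 of 38 tested members (73.7%), against 37.2% of all tested genes. Its level over the mean of the other two AXL KO libraries had a median of 1.44 over the collagens and 0.997 over all genes. WT replicate 1 ranked first among the WT libraries in 21 members (55.3%), against 36.8% of all genes. Without AXL KO replicate 2, 28 of 39 tested collagens were called lower, against 18.8% of all tested genes, and the same 2 were called higher. The 6 that passed the test then, and not with all libraries, were Col1a1, Col1a2, Col5a1, Col5a2, Col12a1 and Col4a5. That library was picked for its high collagen levels, so lower estimates without it follow in part from the choice and are no independent support. Without AXL KO replicate 1 or 3, 18 of 40 tested collagens were called lower, against 12.2% and 11.5% of all tested genes. Without WT replicate 1, 19 of 39 were, against 17.4%.

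**Figure D2:**
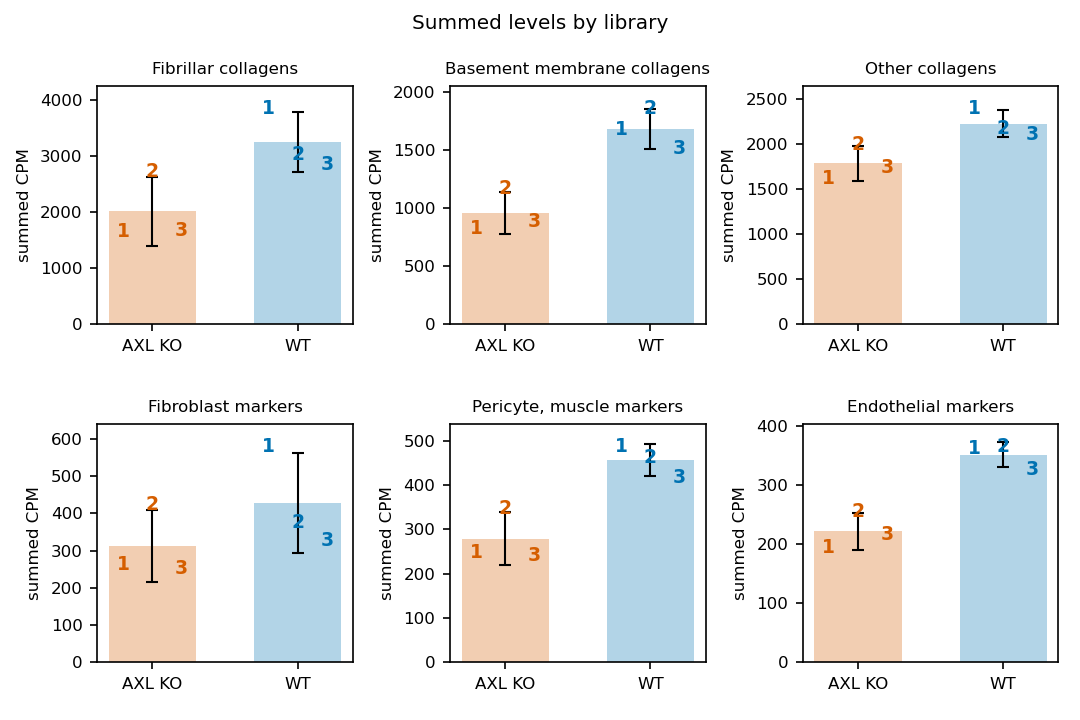
Summed CPM of the collagen classes (top) and of 3 marker lists (bottom). Bars are group means, lines are 1 SD, and each digit marks the library of that replicate number. In all 6 panels AXL KO replicate 2 is the highest AXL KO library, and its fibroblast marker sum of 425 CPM lies above 2 of the WT libraries.

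Among the fibrillar collagens, the chains of types I and III and 2 chains of type V did not pass the test with all libraries, whereas Col5a3 and the chains of types II, XI and XXVII fell. Of 10 tested members 5 fell (50%) and none rose, against 18.3% and 19.1% of all tested genes. Col2a1 is counted among the 5, although it entered the test through its WT libraries. Keeping genes at a mean log2 CPM of at least 2, which drops it, gave 4 of 9 lower, against 20.0% of all tested genes. The log2 fold changes of the 10 had a median of -0.60. Col24a1, the remaining fibrillar gene, had 54 counts over the 6 libraries and was not tested.

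Col1a1 and Col1a2 encode the chains of type I collagen, the main fibre of connective tissue. Col1a1 (GRCm38 chr11:94936224-94953042) had 304, 581 and 323 CPM in AXL KO libraries and 706, 496 and 453 CPM in WT libraries. Col1a2 (chr6:4504814-4541544) had 357, 681 and 384 CPM in AXL KO libraries and 847, 594 and 569 CPM in WT libraries. AXL KO replicate 2 lay above WT replicates 2 and 3 for both chains, whereas the other AXL KO libraries lay below every WT library. The log2 fold changes were -0.45 ± 0.25 for Col1a1 (edgeR adjusted p = 0.186) and -0.50 ± 0.25 for Col1a2 (0.141). Without AXL KO replicate 2 they were -0.81 and -0.85, with edgeR adjusted p-values of 0.00704 and 0.00444. Without AXL KO replicate 1 they were -0.29 and -0.33, and without WT replicate 1 they were -0.24 and -0.30. Neither gene was called in these 2 fits.

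Col3a1, the chain of the reticular fibres that accompany type I, had 564, 738 and 501 CPM in AXL KO libraries and 1112, 688 and 574 CPM in WT libraries. AXL KO replicate 2 again lay above WT replicates 2 and 3, and the log2 fold change was -0.40 ± 0.23 (edgeR adjusted p = 0.209). It did not pass the test without AXL KO replicate 2 either, at -0.57 (edgeR adjusted p = 0.0930). WT replicate 1 was the highest WT library for Col3a1, and leaving it out brought the estimate to -0.07 (edgeR adjusted p = 0.758). The Col3a1 estimate thus rested in large part on that WT library. Type V collagen is a minor fibrillar type that is built into type I fibrils and sets their diameter. Its chains Col5a1 and Col5a2 had log2 fold changes of -0.58 ± 0.26 and -0.53 ± 0.23 (edgeR adjusted p = 0.109 and 0.103). Without AXL KO replicate 2 these were -0.94 and -0.86, with edgeR adjusted p-values of 0.00614 and 0.00384. Without WT replicate 1 they were -0.35 and -0.33, neither called (edgeR adjusted p = 0.310 and 0.284). Col5a3, the third chain of the type, fell to 20.6, 23.9 and 20.6 CPM in AXL KO libraries, against 36.6, 35.4 and 28.3 CPM in WT libraries. Its change of -0.62 ± 0.12 passed the test with all libraries (edgeR adjusted p = 0.00377), and AXL KO replicate 2 stood close to the other two.

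Larger decreases were seen in the fibrillar chains known mainly from cartilage. Col11a1 (chr3:114030540-114220718), a chain of the type XI fibrils that accompany type II, had 239, 413 and 272 CPM in AXL KO libraries and 748, 882 and 904 CPM in WT libraries. It fell 2.74-fold, with a log2 fold change of -1.46 ± 0.19 (edgeR adjusted p = 0.000588), and the groups were far apart. Its partner chain Col11a2 was at 4.21, 3.55 and 4.83 CPM in AXL KO libraries and 9.64, 12.2 and 13.4 CPM in WT libraries. It fell 2.80-fold, a decrease of similar size. Col27a1 (chr4:63214004-63334991), a fibrillar chain of developing cartilage, had 10.2, 11.0 and 15.6 CPM in AXL KO libraries and 32.7, 72.5 and 64.6 CPM in WT libraries. It fell 4.60-fold (log2 fold change -2.20 ± 0.29, edgeR adjusted p = 0.000608), and for this gene AXL KO replicate 2 was not the highest of its group.

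Col2a1, the main fibrillar chain of cartilage itself, was near the limit of detection. It had 2, 20 and 3 counts in the AXL KO libraries, and its WT libraries had 2.13, 1.53 and 1.19 CPM. The log2 fold change was -2.55 ± 0.58 (edgeR adjusted p = 0.0088), and without AXL KO replicate 2, which held most of the AXL KO counts, it was -4.17. With any other single library left out it ranged from -2.73 to -2.13.

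Most basement membrane chains were lower in the AXL KO grafts. Of 7 tested members 5 fell (71.4%) and 1 rose (14.3%), against 18.3% and 19.1% of all tested genes. The median log2 fold change of the 7 was -0.91, and Col4a3 was not tested at 15 counts over the 6 libraries. Type IV collagen has 6 chains that are encoded as head-to-head gene pairs, each pair being transcribed in opposite directions from a shared region.

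Col4a1 and Col4a2 make up the form found in nearly all basement membranes. Col4a1 (chr8:11198423-11312826) had 339, 505 and 378 CPM in AXL KO libraries and 771, 845 and 678 CPM in WT libraries. Col4a2 (chr8:11312805-11449287) had 190.2, 265 and 199 CPM in AXL KO libraries and 414, 474 and 363 CPM in WT libraries. Both fell in parallel, by log2 fold changes of -0.91 ± 0.15 and -0.93 ± 0.14 (edgeR adjusted p = 0.00178 and 0.00131), and the groups did not overlap. The first exons of these genes share 22 bases on opposite strands, and whether counting used strand is not given in the sources used here.

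The pair on chromosome X moved apart. Col4a5 and Col4a6 encode chains that assemble together in the basement membranes of smooth muscle and some epithelia. Col4a5 (chrX:141475385-141689234) had 174, 212 and 185 CPM in AXL KO libraries and 216, 253 and 215 CPM in WT libraries. Its log2 fold change of -0.26 ± 0.10 did not pass the test (edgeR adjusted p = 0.0655), although the groups did not overlap. Col4a6 (chrX:141165403-141474076) had 8.85, 16.8 and 7.16 CPM in AXL KO libraries and 40.2, 67.9 and 58.4 CPM in WT libraries. It fell 5.05-fold (log2 fold change -2.34 ± 0.31, edgeR adjusted p = 0.000638).

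The start regions of both pairs are shown because 1 pair changed in parallel and the other did not. The sequences are the 300-base windows around annotated starts given by RefSeq on GRCm38.p6, each read 5′ to 3′ on the strand of its gene. Capitals mark every CCAAT or GGGCGG on either strand (the complements read ATTGG and CCGCCC), motifs bound by NF-Y and by Sp1-type factors. The Col4a1 window is chr8:11312777-11313076 on the minus strand and also holds the start of Col4a2. The Col4a2 window is chr8:11312555-11312854 on the plus strand and overlaps it. The Col4a5 window is chrX:141475169-141475468 on the plus strand, and the Col4a6 window is chrX:141474027-141474326 on the minus strand.
Col4a1: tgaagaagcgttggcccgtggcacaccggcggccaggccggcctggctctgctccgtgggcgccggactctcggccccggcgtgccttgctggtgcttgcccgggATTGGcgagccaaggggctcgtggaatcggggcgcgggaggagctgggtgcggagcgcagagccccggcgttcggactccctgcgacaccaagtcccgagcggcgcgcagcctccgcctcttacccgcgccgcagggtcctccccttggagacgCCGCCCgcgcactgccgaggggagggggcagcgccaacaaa
Col4a2: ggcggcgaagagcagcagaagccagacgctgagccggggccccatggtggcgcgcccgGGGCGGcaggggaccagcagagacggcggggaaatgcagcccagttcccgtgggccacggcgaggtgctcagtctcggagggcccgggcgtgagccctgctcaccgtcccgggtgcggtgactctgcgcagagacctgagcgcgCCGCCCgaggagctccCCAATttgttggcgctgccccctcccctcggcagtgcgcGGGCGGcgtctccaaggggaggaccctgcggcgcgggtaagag
Col4a5: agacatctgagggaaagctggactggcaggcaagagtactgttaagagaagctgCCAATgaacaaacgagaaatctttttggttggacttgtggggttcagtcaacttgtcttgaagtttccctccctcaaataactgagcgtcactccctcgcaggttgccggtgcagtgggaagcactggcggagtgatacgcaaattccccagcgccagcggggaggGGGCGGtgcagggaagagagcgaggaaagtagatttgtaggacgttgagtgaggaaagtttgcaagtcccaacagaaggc
Col4a6: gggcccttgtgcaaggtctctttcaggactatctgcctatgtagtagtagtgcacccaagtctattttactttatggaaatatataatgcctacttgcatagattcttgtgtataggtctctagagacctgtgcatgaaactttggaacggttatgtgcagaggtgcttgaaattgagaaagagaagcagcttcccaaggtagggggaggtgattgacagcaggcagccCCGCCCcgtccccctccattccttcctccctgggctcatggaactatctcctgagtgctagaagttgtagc
The Col4a1 and Col4a5 windows each held 1 CCAAT and 1 GGGCGG. The Col4a2 window held 1 CCAAT and 3 GGGCGG, and the Col4a6 window held 1 GGGCGG and no CCAAT. The GGGCGG of the Col4a1 window lies where the windows overlap and is 1 of the 3 counted for Col4a2. Of 32851 such windows over all genes, 37.4% held CCAAT and 35.7% held GGGCGG. RefSeq windows were matched for 35 of the 44 collagens, and of their 38 windows 13 held CCAAT and 23 held GGGCGG. A match describes these letters only and is no evidence of binding. The starts of Col4a5 and Col4a6 lie 1308 bases apart, whereas those of Col4a1 and Col4a2 lie within overlapping exons.

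The third pair holds Col4a3 and Col4a4, chains of the glomerular basement membrane. Col4a4 (chr1:82448423-82586849) had 15.2, 14.1 and 14.5 CPM in AXL KO libraries and 8.72, 9.04 and 9.10 CPM in WT libraries. The libraries of a group were close together, and the gene rose 1.62-fold (log2 fold change 0.70 ± 0.10, edgeR adjusted p = 0.00103). Col4a3 was counted at 5, 1 and 6 reads in the AXL KO libraries and at a total of 15 reads over all 6.

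Types XV and XVIII are proteoglycan collagens of the zone between basement membrane and stroma, and endostatin is a fragment of type XVIII. Col15a1 fell to 61.9, 98.3 and 64.8 CPM in AXL KO libraries, against 131, 132 and 117 CPM in WT libraries (log2 fold change -0.75 ± 0.16, edgeR adjusted p = 0.00709). Col18a1 fell to 34.7, 54.3 and 34.4 CPM in AXL KO libraries, against 90.1, 78.5 and 71.995 CPM in WT libraries (log2 fold change -0.96 ± 0.18, edgeR adjusted p = 0.0032). AXL KO replicate 2 was the highest of its group for both, yet stayed below every WT library.

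**Figure D3:**
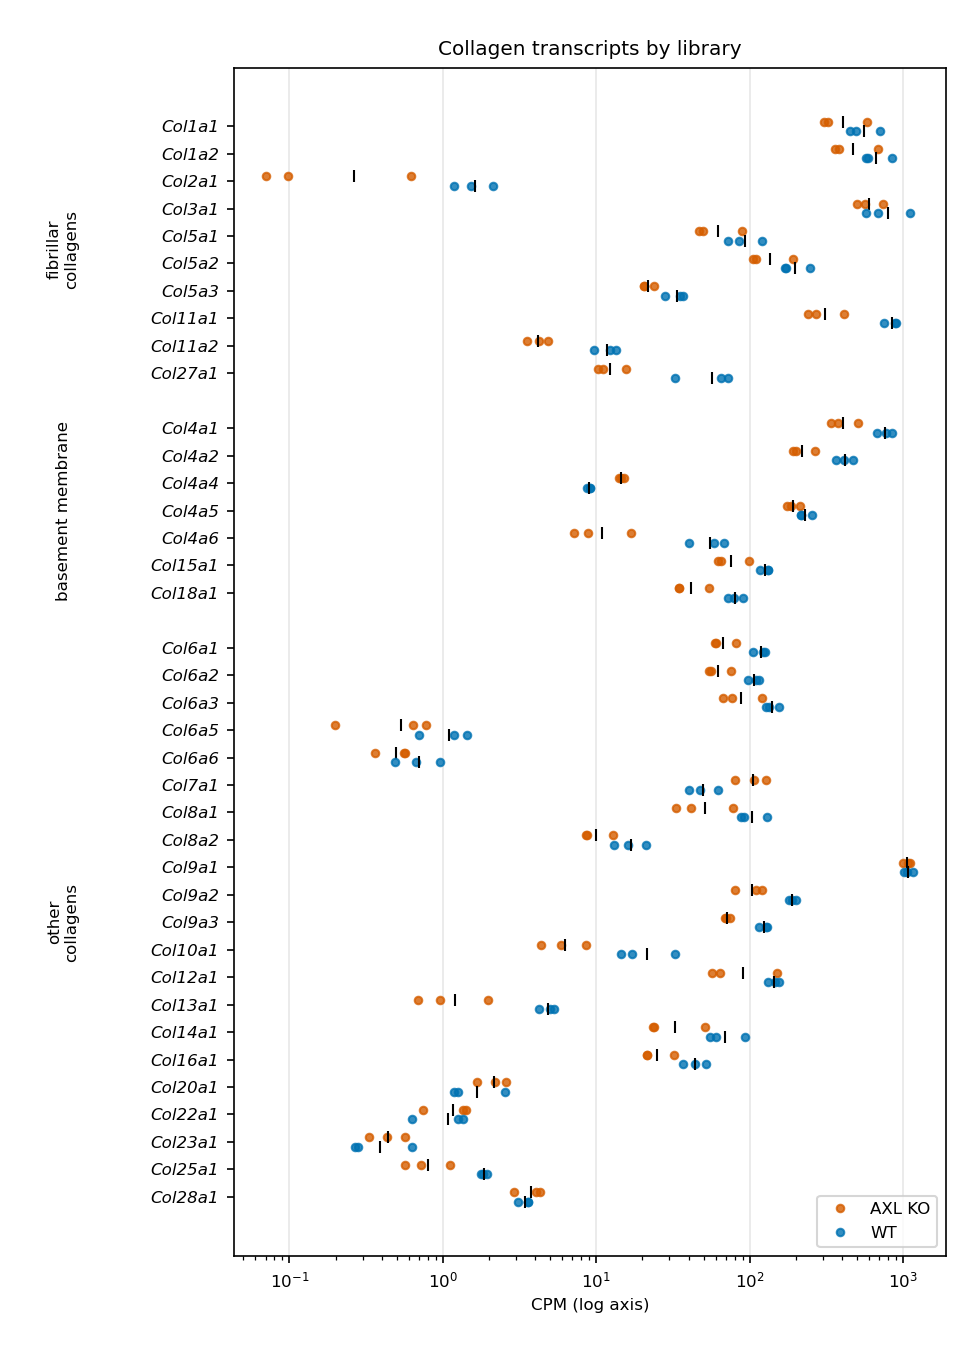
CPM of the tested collagen genes in each library, on a log axis, by class, with AXL KO points drawn above WT points for each gene and black ticks at group means. Col9a1 lies near 1000 CPM in all libraries, and Col4a6, Col27a1 and Col13a1 show AXL KO points well to the left of WT points.

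Of the 21 tested members of other classes, 12 fell (57.1%) and 1 rose (4.76%), against 18.3% and 19.1% of all tested genes. The log2 fold changes of the 21 had a median of -0.79. The FACIT collagens sit on the surface of fibrils and link them to the matrix. Of 8 tested FACIT members 4 were called lower (50%) and none higher. Type IX is the FACIT of type II fibrils and is assembled from 3 chains. Col9a1 (chr1:24177610-24252684) had 999.5, 1111 and 1077 CPM in AXL KO libraries and 1166, 1018 and 1064 CPM in WT libraries. The groups overlapped, with a log2 fold change of -0.03 ± 0.08 and a 95% interval from -0.21 to 0.16 (edgeR adjusted p = 0.818). Its partners behaved otherwise. Col9a2 (chr4:121039385-121055322) had 80.2, 110.2 and 120.4 CPM in AXL KO libraries and 179.5, 200.5 and 187 CPM in WT libraries. It fell by a log2 fold change of -0.87 ± 0.14 (edgeR adjusted p = 0.00157). Col9a3 (chr2:180597790-180622189) fell to 68.7, 74.9 and 70.2 CPM in AXL KO libraries, against 129.7, 114 and 128 CPM in WT libraries, with a log2 fold change of -0.80 ± 0.08 (edgeR adjusted p = 0.000161). Of the exon length of Col9a3, 234 bases overlap Tcfl5 on the opposite strand, which had 1 count over all libraries.

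Types XII and XIV are the FACITs of type I fibrils. Col14a1 fell to 23.7, 50.8 and 23.6 CPM in AXL KO libraries, against 92.6, 60.4 and 55.1 CPM in WT libraries (log2 fold change -1.08 ± 0.31, edgeR adjusted p = 0.0227). Col12a1 had 56.4, 149.8 and 64.5 CPM in AXL KO libraries and 154, 147 and 132 CPM in WT libraries. AXL KO replicate 2 lay within the WT range for Col12a1, and the log2 fold change of -0.68 ± 0.31 did not pass the test (edgeR adjusted p = 0.121). Without that library it was -1.25, with an edgeR adjusted p of 7.4e-05. Without AXL KO replicate 1 it was -0.43 and not called (edgeR adjusted p = 0.309). Col16a1, a FACIT of several tissues, fell to 21.6, 32.0 and 21.5 CPM in AXL KO libraries, against 51.6, 44.1 and 36.7 CPM in WT libraries (edgeR adjusted p = 0.00696). Col20a1 and Col22a1 had group means between 1.08 and 2.15 CPM and log2 fold changes of 0.36 ± 0.32 and 0.10 ± 0.35, neither called. Without WT replicate 2, Col20a1 was at 0.82 and was called higher (edgeR adjusted p = 0.0467). Col19a1 had 0 counts in every library.

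Type VI collagen forms beaded microfilaments around cells. Its main chains fell together, Col6a1 to 60.2, 81.9 and 59.0 CPM in AXL KO libraries, against 127, 122 and 105 CPM in WT libraries. Col6a2 fell to 56.0, 75.8 and 54.4 CPM in AXL KO libraries, against 115, 109 and 97.7 CPM in WT libraries. Their log2 fold changes were -0.81 ± 0.14 and -0.79 ± 0.13 (edgeR adjusted p = 0.00208 and 0.0021). Col6a3, the third main chain, fell by -0.65 ± 0.20 on the log2 scale (edgeR adjusted p = 0.0279), with AXL KO replicate 2 at 121 CPM close to the lowest WT library at 127 CPM. The alternative chains Col6a5 and Col6a6 stayed near or below 1 CPM, with log2 fold changes of -1.03 ± 0.45 and -0.50 ± 0.34 that did not pass the test, and Col6a4 was not tested at 27 counts in all.

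The 3 short-chain network collagens all fell, against 18.3% of all tested genes called lower. Only 1 of the 3, Col10a1, was called without AXL KO replicate 1, without AXL KO replicate 3 or without WT replicate 1. Type VIII makes hexagonal lattices beneath endothelium, and type X is the collagen of hypertrophic cartilage. Col8a1 had 33.3, 78.2 and 41.3 CPM in AXL KO libraries and 131, 91.2 and 87.5 CPM in WT libraries (log2 fold change -1.02 ± 0.29, edgeR adjusted p = 0.0235). Col8a2 had 8.61, 12.8 and 8.67 CPM in AXL KO libraries and 21.2, 12.99 and 16.2 CPM in WT libraries (log2 fold change -0.74 ± 0.21, edgeR adjusted p = 0.0229). Col10a1 had 4.36, 8.59 and 5.91 CPM in AXL KO libraries and 32.8, 17.2 and 14.5 CPM in WT libraries, and fell 3.40-fold (edgeR adjusted p = 0.00373). In each of the 3 genes AXL KO replicate 2 was the highest of its group and WT replicate 1 the highest of its own. Col10a1 shares 18 exon bases with Nt5dc1 on the opposite strand.

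Col7a1 (chr9:108953586-108984875) was the largest increase of the family. It encodes the anchoring fibrils that fasten the epidermal basement membrane to the dermis. It had 128, 79.9 and 106 CPM in AXL KO libraries and 47.1, 61.7 and 40.2 CPM in WT libraries. It rose 2.11-fold (log2 fold change 1.08 ± 0.19, edgeR adjusted p = 0.00297), with AXL KO replicate 2 the lowest of its group. The summed level of 8 keratinocyte markers was 2.83 to 3.15 CPM in AXL KO and 2.72 to 3.07 CPM in WT libraries, with Krt15, Ivl and Flg at 0 in all 6. The 2 tested members of that list were called in opposite directions, Krt10 1.78-fold higher and Dsg3 5.21-fold lower in AXL KO libraries (edgeR adjusted p = 0.0124 and 0.00143), and their part in the Col7a1 result was not tested. The basal keratins Krt5 and Krt14 were at or below 0.105 CPM in every library of both groups.

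Transmembrane collagens were scarce. Col13a1, a collagen of cell adhesion sites, had 27, 64 and 21 counts in AXL KO libraries, which corresponds to 0.956, 1.98 and 0.690 CPM, against 4.23, 5.28 and 4.99 CPM in WT libraries. It fell 3.96-fold (log2 fold change -1.99 ± 0.33, edgeR adjusted p = 0.00202). Col25a1, known from neurons, fell to 0.567, 1.11 and 0.723 CPM in AXL KO libraries, against 1.84, 1.76 and 1.95 CPM in WT libraries (edgeR adjusted p = 0.00809). Col23a1 averaged 0.443 ± 0.119 CPM in AXL KO libraries and 0.390 ± 0.204 CPM in WT libraries, with overlapping groups. Col17a1, the hemidesmosome collagen, had 8 counts in all and was not tested. Of the 2 genes placed in no class, Col28a1 averaged 3.75 ± 0.759 CPM in AXL KO libraries and 3.42 ± 0.284 CPM in WT libraries (log2 fold change 0.13 ± 0.19, not called). Col26a1 had 59 counts in all and was not tested.

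The mix of collagens differed between the groups as well as the total. Per kilobase of transcript, Col9a1 had the highest level of the family in both groups, at 277 ± 14.9 CPM per kb in AXL KO libraries and 282 ± 19.8 CPM per kb in WT libraries. Next came Col3a1, at 108 ± 22.0 CPM per kb in AXL KO libraries and 142 ± 51.0 CPM per kb in WT libraries. Col1a2 followed, at 88.7 ± 33.6 CPM per kb in AXL KO libraries and 125 ± 28.7 CPM per kb in WT libraries. In neither group did the means of these last 2 genes differ by more than the SD between libraries, and their order within each library was not compared. Col11a1 ranked 6 in AXL KO libraries at 40.2 ± 12.1 CPM per kb and 5 in WT libraries at 110.2 ± 11.0 CPM per kb. In WT libraries Col1a2, Col4a1, Col11a1 and Col1a1 stood in this order at 125, 116, 110.2 and 93.0 CPM per kb, each within the spread of its neighbour. The order of these genes within each library was not compared either. Lengths are those of the longest annotated coding transcript, and with the length of all exons merged, Col9a1 remained first and the order of the next genes changed.

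As a share of all collagen CPM in a library, Col9a1 took 24.4%, 18.8% and 25.0% in AXL KO libraries and 14.7%, 14.4% and 16.4% in WT libraries. The groups did not overlap, although the level of the gene itself did. Col11a1 took 5.82%, 7.01% and 6.32% in AXL KO libraries and 9.43%, 12.5% and 14.0% in WT libraries. Col7a1 took 2.32% ± 0.897 in AXL KO libraries and 0.696% ± 0.153 in WT libraries.

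Chains that assemble into one protein were also compared as ratios of CPM within a library, which cancels scaling between libraries. The ratio of Col4a1 to Col4a2 was 1.86 ± 0.0687 in AXL KO libraries and 1.84 ± 0.0477 in WT libraries. The ratio of Col6a1 to Col6a2 was 1.08 ± 0.00400 in AXL KO libraries and 1.098 ± 0.0250 in WT libraries. These pairs held nearly the same proportion in both groups, with overlapping values. The ratio of Col4a6 to Col4a5 was 0.0508, 0.0795 and 0.0388 in AXL KO libraries and 0.186, 0.268 and 0.271 in WT libraries. The ratio of Col9a2 to Col9a1 was 0.0971 ± 0.0159 in AXL KO libraries and 0.176 ± 0.0215 in WT libraries. The ratio of Col9a3 to Col9a1 was 0.0671 ± 0.00178 in AXL KO libraries and 0.115 ± 0.00486 in WT libraries. For these the groups did not overlap. The ratio of Col1a1 to Col1a2 also separated the groups, but narrowly, at 0.848 ± 0.00637 in AXL KO libraries and 0.822 ± 0.0217 in WT libraries. The ratios of Col5a1 to Col5a2, Col8a1 to Col8a2 and Col11a2 to Col11a1 overlapped. Each of the 4 separated ratios had p = 0.1 in a two-sided exact permutation test, the smallest that 3 libraries against 3 allow, and 0.225 after Benjamini-Hochberg adjustment over the 9 ratios.

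**Figure D4:**
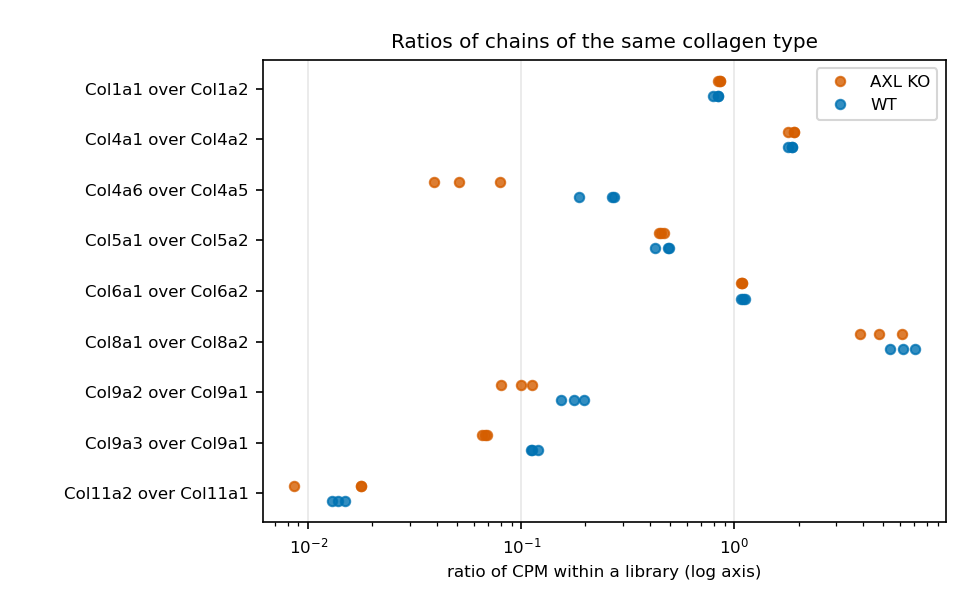
Ratio of CPM between chains of 1 collagen type in each library, on a log axis, AXL KO above WT for each ratio. The points of Col4a6 over Col4a5, Col9a2 over Col9a1 and Col9a3 over Col9a1 lie left of the WT points without overlap, whereas those of Col4a1 over Col4a2 overlap.

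Genes that fold, modify, cleave and crosslink collagen chains were lower in large part. Of 31 such genes in the files 30 were tested. Of these 18 fell (60%) and 1 rose (3.33%), against 18.3% and 19.1% of all tested genes. The median over the 30 was -0.66 on the log2 scale. As few as 9 were called lower without AXL KO replicate 1 or without AXL KO replicate 3. Several enzymes that cleave propeptides were among them. Bmp1, which cleaves the C-propeptide of fibrillar collagens, averaged 27.4 ± 7.28 CPM in AXL KO libraries and 84.3 ± 3.75 CPM in WT libraries, a 3.08-fold decrease. Adamts14 and Adamts3, which cleave the N-propeptide, fell 3.38-fold and 2.10-fold. Loxl3, a lysyl oxidase of the crosslinking family, averaged 32.9 ± 17.7 CPM in AXL KO libraries and 107 ± 7.23 CPM in WT libraries, a 3.24-fold decrease. Enzymes that modify the chains also fell, with P4ha1, a subunit of prolyl hydroxylase, at 2.12-fold, Plod1, a lysyl hydroxylase, at 1.84-fold, and Crtap and Colgalt1 at 1.498-fold and 1.35-fold. Serpinh1, the collagen chaperone HSP47, averaged 331 ± 39.4 CPM in AXL KO libraries and 540.4 ± 21.3 CPM in WT libraries. No edgeR adjusted p among these genes exceeded 0.0063. In the family of Loxl3, Loxl1 fell 1.96-fold (edgeR adjusted p = 0.0214), whereas Lox, Loxl2 and Loxl4 were not called. P4hb and Ppib of the same list were not called either. Mia3, which helps load collagen into export carriers, rose 1.27-fold (edgeR adjusted p = 0.0131).

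Of 9 tested collagen receptors 1 fell (11.1%) and 1 rose (11.1%), against 18.3% and 19.1% of all tested genes. With so few genes these shares are near the background, and the median over the 9 was -0.23 on the log2 scale. Mrc2, an uptake receptor for collagen, had 9.56, 19.7 and 9.46 CPM in AXL KO libraries and 26.2, 20.9 and 19.5 CPM in WT libraries, and fell 1.72-fold (edgeR adjusted p = 0.0486). AXL KO replicate 2 overlapped the WT range, and the gene passed in no fit that left out one of the other 5 libraries. Lair1, an inhibitory collagen receptor of leukocytes, had 13.2, 17.2 and 13.1 CPM in AXL KO libraries and 6.26, 7.84 and 7.08 CPM in WT libraries, and rose 2.06-fold (edgeR adjusted p = 0.000993).

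Most endothelial and pericyte markers were lower in the AXL KO grafts, while no fibroblast marker passed the test with all libraries. The counts of markers below stand against 18.3% of all tested genes called lower and 19.1% called higher. The summed level of 10 endothelial markers was 194, 255 and 216 CPM in AXL KO libraries and 361, 366 and 327 CPM in WT libraries, and 9 of 10 fell. The sum of 10 pericyte and smooth muscle markers was 248, 348 and 241 CPM in AXL KO libraries and 488, 463 and 418 CPM in WT libraries, and 8 of 10 fell. Abcc9 of that list was at 83.9 ± 19.5 CPM in AXL KO libraries and 55.3 ± 15.5 CPM in WT libraries (edgeR adjusted p = 0.0513). The sum of 11 fibroblast markers was 262, 425 and 252 CPM in AXL KO libraries and 580.2, 376 and 327 CPM in WT libraries. The fibroblast sums overlapped. Without AXL KO replicate 2 the fit called 4 of the 11 fibroblast markers lower, against 18.8% of all tested genes. The median log2 fold change of the 11 was -0.51 with all libraries. No marker of these 3 lists was at 0 in all libraries, and their part in the collagen changes was not tested. Luminal epithelial markers summed to 11912 to 14132 CPM in AXL KO libraries and 11795 to 13123 CPM in WT libraries, where 5 of 9 tested fell and 2 rose. Erbb2, the oncogene of the model, made up most of that sum and rose 1.28-fold, with 9207 ± 1007 CPM in AXL KO libraries and 7193 ± 655 CPM in WT libraries. The other 9 markers summed to 3747 to 4114 CPM in AXL KO libraries and 4927 to 5249 CPM in WT libraries, which did not overlap. Of these, Epcam, Krt8 and Krt18 fell 1.44-fold, 1.36-fold and 1.52-fold, and Cldn3 and Elf3 also fell. Esrp1 went the other way and rose 1.47-fold (edgeR adjusted p = 0.000746), and Cdh1 and Cldn7 were not called. The part of these markers in the collagen changes was not tested.

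Cartilage markers were set beside collagens II, IX, X, XI and XXVII. Acan, the defining proteoglycan of cartilage, was at 0 in all 6 libraries, and Matn1 and Hapln1 had 2 counts and 1 count in all. Comp, a matrix protein that binds collagens and is also made by other connective tissues, had 123, 197 and 143 CPM in AXL KO libraries and 756, 753 and 633 CPM in WT libraries, and fell 4.63-fold. Chad, which encodes the collagen-binding protein chondroadherin, fell 1.79-fold. The summed level of the list was 315 to 355 CPM in AXL KO libraries and 821 to 944 CPM in WT libraries. Comp alone made up 154 of a mean of 331 CPM in AXL KO libraries and 714 of 890 CPM in WT libraries. The difference in the sum was therefore mostly that of Comp. Of 3 tested members 2 fell, against 18.3% of all tested genes. Sox9, a transcription factor of chondrocytes and of some epithelia, averaged 148 CPM in AXL KO libraries and 124 CPM in WT libraries and was not called.

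In the authors' deposited table, 41 collagens have an adjusted p, and at the same threshold 21 are lower and 2 higher in AXL KO grafts. All 21 were also called lower here. The gene called lower only here was Col8a1, with an adjusted p of 0.0518 in the authors' deposited table.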

How the data were processed

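Total RNA of 6 tumour grafts was sequenced. CASAVA 1.8, TopHat2 2.0.10, HTSeq 0.5.3, DESeq2 1.4.5 and GRCm38 are named in the submitters' processing notes, and their settings, strand included, were not given in the sources used here. The authors deposited raw counts per gene for each library. Rows that name no gene were left out, and 25.7% to 29.0% of counted lines were alignments that were not unique. Per the file headers, the authors also deposited a table with a signal per library (counts divided by a size factor), log2 fold changes (WT over AXL KO), their standard errors as a score, and p-values. That table was compared and not retested.

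Groups came from sample titles. Genes were filtered with edgeR filterByExpr (minimum count 10, minimum total 15), which kept 14850 of 21716 with any count, and were tested with edgeR 4.0.16 in R 4.3.3 (quasi-likelihood, TMM factors 0.980 to 1.02, no covariate), at a biological coefficient of variation of 0.117. Coordinates and lengths came from GENCODE M21. Standard errors were derived from each F statistic. The fit was tested on simulated data. All tested members are named, and of the processing and receptor lists those called, up to 10 by smallest p. Lox, Loxl1, Loxl2, Loxl4, P4hb and Ppib are named in addition. The members, classes and lists were chosen with earlier results of these data known. Alternatives used DESeq2 1.42.0, limma 3.58.1, other scalings, filters and thresholds, a replicate block and each library left out. Depth limits the precision of scarce members most.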

Additional observations from a re-analysis of the deposited data

How the results depend on the processing

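Over normalization by DESeq2 size factors or upper quartile, DESeq2, limma-voom and no filter, 22 or 23 collagens were lower and 2 higher, and with each library left out 18 to 28 were lower and 2 or 3 higher (3 without WT replicate 2, with Col20a1). Keeping genes at a mean log2 CPM of at least 2 gave 19. The labels do not say whether same-numbered libraries were paired. Their deviations from the group means had correlations of -0.058, -0.125 and 0.088, which with 3 libraries per group cannot settle it. With a replicate block, 23 collagens were lower. Col8a2 was lost under the block (edgeR adjusted p = 0.0533) and Col4a5 and Col6a5 were gained. Of the 22 decreases, 18 passed the test with each library left out; Col6a3, Col8a1, Col8a2 and Col14a1 did not in every fit. Requiring 2-fold left 10 collagens lower and 1 higher, 1 lower among basement membrane and 5 among other classes, 7 lower processing genes, 0 lower receptors, and 716 lower and 764 higher genes in all. At an adjusted p under 0.01, 1464 genes were lower and 1610 higher, 9 processing genes and 0 receptors were lower. With libraries left out, 1733 (without AXL KO replicate 3) to 2828 genes were lower, fibrillar collagens ranged from 5 to 9, processing genes from 9 to 22 and receptors from 0 to 3. Receptors numbered 2 with DESeq2, with no filter and with the replicate block, and 0 at a mean log2 CPM of 2. Type IV alone gave 3 lower. Estimates near 0 changed sign with libraries left out, with ranges of -0.067 to 0.028 for Col9a1, -0.17 to 0.35 for Col22a1 and -0.027 to 0.68 for Col23a1. The cause was not tested for these shifts. Between 0 and 59 counts in all limited 6 collagens to no test.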
